A study of Brassica napus with 6 samples.

Results

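The seed transcripts described here come from the 2 copies of FATTY ACID ELONGASE1 (FAE1) in oilseed rape, Brassica napus, whose genome joins the A and C subgenomes of its diploid parents. The members were chosen by ID as the rows BnaA08g11130D, on chromosome A08, and BnaC03g65980D, on chromosome C03, and both were found, so the pair makes up 2 of 72611 genes in the deposited table. Their gene models are 1521 and 1428 bases long. The deposited tables give IDs without gene names, and 0 IDs matched an entry of RefSeq's gene list for the Da-Ae assembly, which holds 1 gene with the synonym FAE1, on chromosome A8. The name FAE1 therefore rests on the published use of these IDs and was not checked against sequence here, and no coordinates or exon structure are given.

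FAE1 encodes a 3-ketoacyl-CoA synthase, the condensing enzyme that starts each round of fatty acid elongation at the endoplasmic reticulum. In developing seeds of Brassica and Arabidopsis it lengthens oleoyl-CoA to eicosenoic acid and, in Brassica, on to erucic acid, which are stored in seed oil. Loss of function in both copies gives the low-erucic oil of canola-type rapeseed, so a transcript level alone does not say whether active enzyme was made.

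Seed RNA of control plants, and of plants kept under drought stress since they began to flower, was sequenced at 30, 40 and 50 days after flowering. All plants grew under a rain shelter, and each treatment had 1 library per day, 6 in all. The growth label speaks of 6 lines without saying which line or lines each library holds, so the FAE1 alleles behind the values are not known, and a difference between plants or lines cannot be told apart from drought. The libraries held 10314859 to 16177156 counted reads. In whole seeds, fewer cells of a type and less RNA per cell cannot be told apart. Since no treatment was repeated within a day, daily values describe single libraries, and the 95% exact intervals given cover counting error only.

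Both FAE1 copies were among the abundant transcripts of every library. The A08 copy had 3535, 4835 and 6533 reads in control seeds of days 30, 40 and 50, and 4732, 3326 and 2861 in drought seeds. The C03 copy had 4370, 6952 and 9304 reads in control and 6347, 5252 and 4010 in drought. By reads per kilobase, the A08 copy ranked between 152nd and 574th of the 72611 genes over the 6 libraries, and the C03 copy between 100th and 331st. By the authors' FPKM the ranks were lower, between 418th and 1185th for the A08 copy and between 234th and 723rd for the C03 copy. By either measure the highest rank of both copies was in the control library of day 50 and the lowest in the drought library of day 50. Together the copies held 0.0647%, 0.0848% and 0.106% of all reads in control at days 30, 40 and 50, and 0.0685%, 0.0832% and 0.0457% in drought.

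The course with seed age differed between the control and drought libraries, and both copies had the same course. Levels are given as reads scaled to library size (CPM) with TMM factors (trimmed mean of M values), which sets the bulk of genes equal between libraries. The A08 copy stood at 229, 329 and 506 CPM in control at days 30, 40 and 50, and at 226, 426 and 225 CPM in drought. The C03 copy stood at 283, 473 and 720 CPM in control, and at 303, 672 and 316 CPM in drought. In control each later day was higher, whereas in drought day 40 was highest and day 50 lay near day 30. For the A08 copy the counting intervals of drought day 50 (217 to 234 CPM), drought day 30 (219 to 232 CPM) and control day 30 (221 to 236 CPM) overlapped, followed by control day 40, drought day 40 and control day 50, each apart from the next. For the C03 copy control day 30 (274 to 291 CPM) was lowest. The intervals of drought days 30 (295 to 310 CPM) and 50 (306 to 325 CPM) overlapped. Compared directly, the C03 log2 ratio of drought day 50 to day 30 was 0.06 (counting interval 0.003 to 0.12). Then the same 3 libraries followed in the same order. The authors' FPKM, which scale fragments by transcript length and library, gave the A08 copy 171, 234 and 349 in control and 170, 280 and 156 in drought. They gave the C03 copy 236, 382 and 564 in control and 258, 482 and 248 in drought. On that scale too, control was higher at each later day and drought was highest at day 40.

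**Figure D1:**
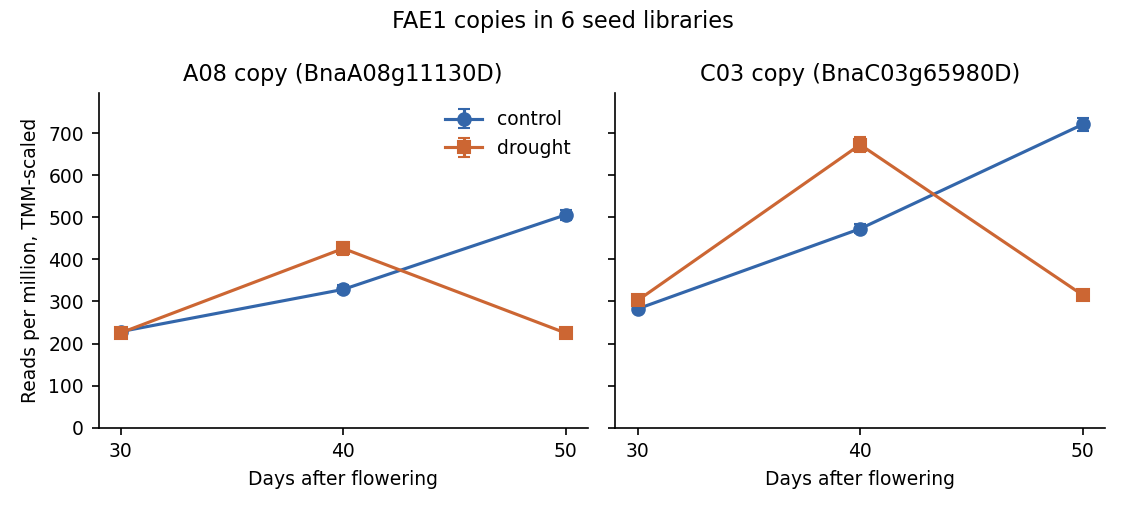
Level of each FAE1 copy (vertical axis, TMM-scaled CPM) against days after flowering (horizontal axis) in the control libraries (circles) and drought libraries (squares), 1 library per point, with bars for the 95% counting interval. The lines cross between days 40 and 50: drought is above control at day 40, at 426 against 329 for the A08 copy, and below it at day 50, at 225 against 506.

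Between control seeds of day 30 and day 50, both copies differed at least 2-fold. The A08 copy was 2.21-fold higher at day 50 (counting interval 2.12 to 2.31) and the C03 copy 2.55-fold higher (2.46 to 2.64). Of 27469 genes averaging 5 CPM or more in these libraries, 12.8% were at least 2-fold higher at day 50. With library totals alone in place of TMM the folds were 1.51 and 1.74, while the median gene then had a log2 ratio of -0.55. In drought the C03 copy was also at least 2-fold higher at day 40 than at day 30, at 2.22-fold, where 13.1% of genes were, and the A08 copy was 1.89-fold higher. These folds depended on the scaling: with library totals alone they were 1.30 for the C03 copy and 1.1 for the A08 copy, and with FPKM 1.87 and 1.65. The step from day 40 to day 50 had opposite signs in the 2 treatments. In control the log2 ratio of day 50 to day 40 was 0.62 for the A08 copy and 0.61 for the C03 copy, and in drought it was -0.92 and -1.09. In drought the C03 copy was thus 2.13-fold lower at day 50 than at day 40, where 12.9% of genes were at least 2-fold lower, and the A08 copy 1.89-fold lower. The C03 fold was below 2 with library totals (1.91), FPKM (1.94) and the length trend removed (1.99). Both signs held for both copies with other scaling factors (relative log expression), library totals, the authors' FPKM and removal of the gene length trend. Over the whole span from day 30 to day 50 the drought libraries were close, with log2 ratios of -0.00 and 0.06. With library totals these became -0.62 and -0.56, beside a median gene at -0.55, and with FPKM -0.13 and -0.06. With relative log expression the counting interval of the C03 ratio was -0.001 to 0.11.

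Neither copy was called for seed age in the test over both treatments. In edgeR's quasi-likelihood test, with terms for day and treatment over all 6 libraries, the C03 copy had a log2 fold change of 0.98 from day 30 to day 40 (SE 0.56, 95% interval -0.28 to 2.24, adjusted p = 0.382). The A08 copy had 0.75 (SE 0.51, interval -0.40 to 1.90, adjusted p = 0.479). From day 30 to day 50 the edgeR values were 0.78 (interval -0.49 to 2.06, adjusted p = 0.373) for the C03 copy and 0.64 (interval -0.53 to 1.80, adjusted p = 0.433) for the A08 copy. From day 40 to day 50 they were -0.20 and -0.11, with adjusted p = 0.895 and 0.935 in edgeR. With library totals alone the edgeR log2 fold changes of the C03 and A08 copies were 0.41 and 0.19 from day 30 to day 40 and 0.16 and 0.015 from day 30 to day 50, beside median genes at -0.52 and -0.58. The test called 6.43% of 46483 genes from day 30 to day 40, 20.3% from day 30 to day 50 and 1.44% from day 40 to day 50. In this model a copy's own spread comes from how far the treatments disagree in their course. The edgeR fit moderates that spread with information from all tested genes. The intervals are wide enough to hold changes over 2-fold. The direction from day 30 to day 50 rested on the control library of day 50. Without that library the log2 fold changes were -0.08 for the A08 copy and -0.02 for the C03 copy. The change from day 40 to day 50 turned positive without the drought library of day 40 (0.36 for the A08 copy, 0.32 for the C03 copy). It also did so without the drought library of day 50 (0.52 for the A08 copy, 0.51 for the C03 copy).

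Whether drought changed the FAE1 transcripts was asked day by day, and the drought library was lower by more than 2-fold at day 50. There the A08 copy stood at 225 CPM in drought against 506 in control, 2.25-fold lower (counting interval 2.15 to 2.35). The C03 copy stood at 316 against 720 CPM, 2.28-fold lower (2.2 to 2.37). Of 26670 genes averaging 5 CPM or more on that day, 9.58% were at least 2-fold lower in drought. Of all 26670 genes, 7.26% had a lower ratio than the A08 copy, and 7.0% a lower one than the C03 copy. The log2 ratio at day 50 ran from -1.20 to -1.14 for the A08 copy and from -1.22 to -1.16 for the C03 copy over TMM, relative log expression, library totals, FPKM and removal of the length trend.

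At day 40 the drought library was higher for both copies by less than 2-fold, and here the scaling mattered. The drought library exceeded its control by 2-fold or more for 6.06% of 26606 genes on that day, and for 0 of the 2 copies. The A08 copy stood at 426 CPM against 329 in control, a log2 ratio of 0.37 (counting interval 0.31 to 0.44). The C03 copy stood at 672 against 473 CPM, a log2 ratio of 0.51 (0.46 to 0.56). With library totals alone the ratio of the A08 copy was -0.11 and that of the C03 copy 0.03, beside a median gene at -0.47. Set against the median gene, the A08 copy was 0.35 higher on the log2 scale with TMM and 0.36 higher with library totals, and the C03 copy 0.49 higher with both. With the authors' FPKM the ratios were 0.26 and 0.33, and with the gene length trend removed 0.34 and 0.45. At day 30 the ratio of the A08 copy was -0.02 (interval -0.08 to 0.04), not distinguishable from equal levels at this depth, and that of the C03 copy 0.10 (0.04 to 0.15).

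**Figure D2:**
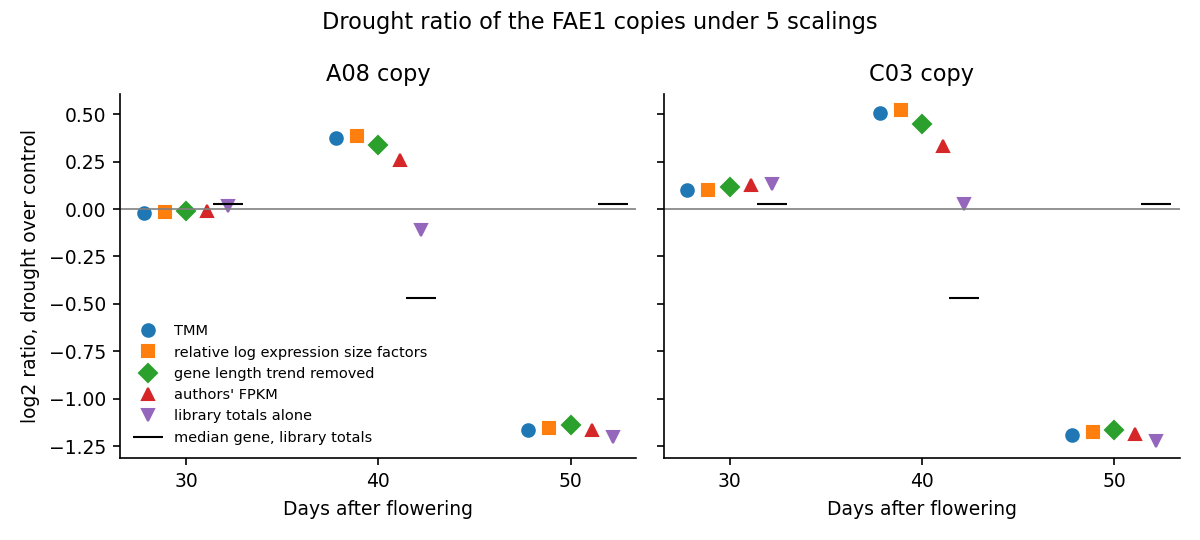
Log2 ratio of drought to control (vertical axis) for each FAE1 copy at days 30, 40 and 50 (horizontal axis), under 5 ways of scaling (symbols), with black bars for the median gene under library totals. The symbols lie close together at days 30 and 50 and spread at day 40, where the A08 copy runs from 0.39 to -0.11 and the median gene under library totals lies at -0.47.

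Over the 3 days together no drought change was called for either copy. In edgeR's quasi-likelihood test the log2 fold change of drought against control was -0.27 for the A08 copy (SE 0.42, 95% interval -1.22 to 0.69, adjusted p = 0.906). It was -0.19 for the C03 copy (SE 0.46, interval -1.23 to 0.86, adjusted p = 0.942). This test called 0.00215% of 46483 genes, or 1 gene. Of the 8 edgeR tests on the pair, 4 for each copy, 0 passed the adjusted threshold of 0.05 and 0 had an unadjusted p under 0.05. With DESeq2 0 passed and 1 had an unadjusted p under 0.05, and with limma voom the counts were 0 and 0. Both values turned positive without either library of day 50, to 0.18 for the A08 copy and 0.30 for the C03 copy. A drought change of opposite sign on different days adds to the spread of this test, and whether the days differ could not be tested with 1 library for each treatment and day.

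**Figure D3:**
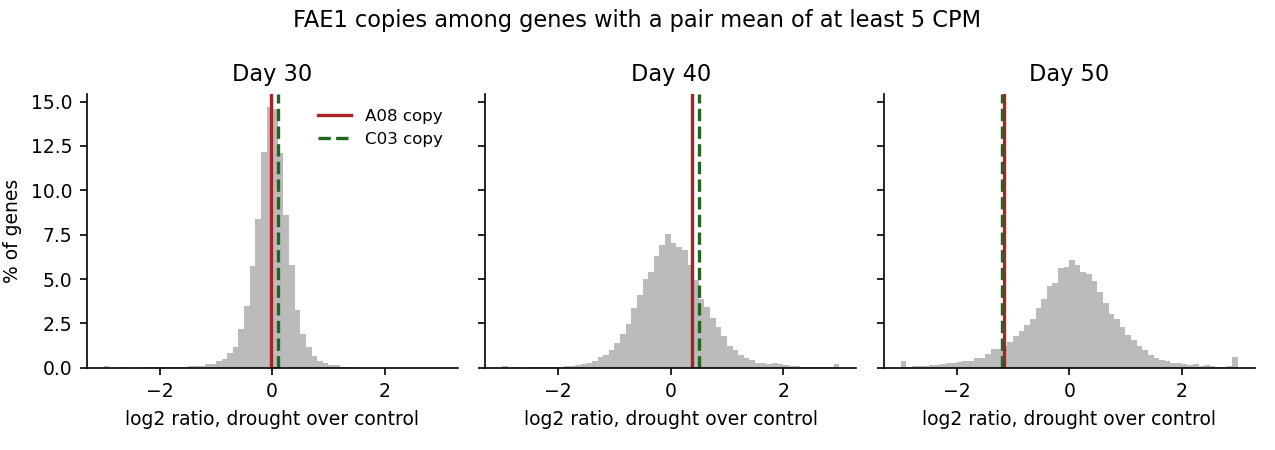
Distribution of the log2 ratio of drought to control for genes averaging 5 CPM or more on that day (grey, percent of genes per bin, values beyond 3 placed in the end bins), with the A08 copy (solid line) and the C03 copy (dashed line), 1 panel per day. The copies lie within the bulk at day 30, on its upper side at day 40, and in the lower tail at day 50, at -1.17 and -1.19.

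By counted reads, the C03 copy was the higher of the pair in all 6 libraries. Per kilobase of gene model, it stood at 198, 331 and 504 TMM-scaled CPM in control at days 30, 40 and 50, and the A08 copy at 150, 216 and 332. In drought the C03 copy stood at 212, 471 and 221 and the A08 copy at 148, 280 and 148. Both copies were lowest per kilobase in libraries of day 30 or in drought day 50, and highest in control day 50. How reads that match both copies were assigned is not known, and their part in the order of the copies was not tested.

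The A08 share of the pair's reads does not depend on how libraries are scaled. It was 44.7% in control at day 30 (exact Clopper-Pearson interval 43.6 to 45.8), 41.0% at day 40 (40.1 to 41.9) and 41.3% at day 50 (40.5 to 42.0). In drought it was 42.7% (41.8 to 43.6), 38.8% (37.7 to 39.8) and 41.6% (40.5 to 42.8). In both treatments the share was lower at day 40 than at day 30, with a difference of -3.70 percentage points in control and -3.94 in drought, more than counting error. Control then stayed level to day 50, while in drought the share was 2.87 points higher at day 50 than at day 40. Across all A and C genes the A share of reads went the other way over the first step, from 49.6% to 50.8% in control and from 49.2% to 52.4% in drought.

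Between treatments the A08 share was lower in drought at days 30 and 40, by more than counting error, and within counting error at day 50. As a log2 ratio of A08 to C03 reads, drought minus control was -0.12 at day 30 (counting interval -0.20 to -0.03), -0.14 at day 40 (-0.22 to -0.05) and 0.02 at day 50 (-0.06 to 0.11). Drought was thus lower on 2 of 3 days. The mean difference was -0.08 ± 0.09 (SD, n = 3 days), with p = 0.5 in a two-sided exact sign-flip permutation test. With 3 days the smallest p this test allows is 0.25, so it could not have called a difference. At day 50, where both copies were over 2-fold lower in drought, their share was within counting error of control. Near-identical copies can share reads, and how such reads were assigned is not given in the sources used here. The authors' FPKM gave lower A08 shares, of 42.1%, 38.0% and 38.2% in control and 39.7%, 36.8% and 38.6% in drought, with the same order of days in both treatments.

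**Figure D4:**
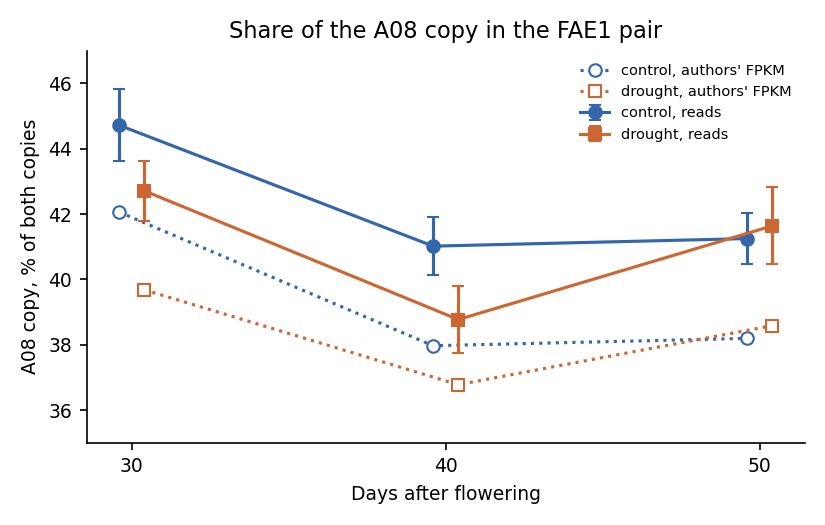
Share of the A08 copy in the FAE1 pair (vertical axis, percent, starting at 35) against days after flowering, from reads (filled symbols, solid lines, bars for the 95% exact binomial interval) and from the authors' FPKM (open symbols, dotted lines), in control (circles) and drought (squares). Both treatments are lower at day 40 than at day 30, and at day 50 they meet, at 41.3% and 41.6% of reads.

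Across the 6 libraries, on TMM-scaled counts, each copy was more like its partner than like any other gene compared, but only by a narrow margin. Among 9848 genes averaging 20 CPM or more, the Pearson correlation of log2(CPM + 0.5) between the copies was 0.990 over 6 libraries, and each copy ranked 1st for the other. With the authors' FPKM the C03 copy still ranked 1st for the A08 copy, whereas the A08 copy ranked 6th for the C03 copy. All genes of a library share its depth and scaling factor. The part that reads shared between the copies have in the likeness was not tested, so the values are a description. A correlation over 0.9 with the A08 copy was found for 166 genes, or 1.69%, and with the C03 copy for 215, or 2.18%. After its partner, the gene most like the A08 copy was BnaC06g16900D (r = 0.98955, against 0.98996 for the partner). Its libraries had the same order over a much narrower range. It held 238 to 545 reads per library, so its values carry more relative counting error than those of the copies. It stood at 26.4, 29.1 and 33.4 CPM in control and at 26.0, 30.5 and 25.8 in drought. The gene most like the C03 copy was BnaC01g23350D (r = 0.989), at 14.2, 23.9 and 31.6 CPM in control and 14.2, 30.0 and 16.9 in drought. It held 215 to 408 reads per library. The files do not pair either ID with a gene name.

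The shape itself was then counted, a choice made after the values of the pair had been seen. On TMM-scaled CPM, control higher at each later day together with drought highest at day 40 was found for 952 of the 9848 genes, or 9.67%. With drought also above control at day 40 and at least 2-fold below it at day 50, 121 genes were left, or 1.23%, among them both FAE1 copies. This membership rests on the TMM scaling. With library totals alone the A08 copy was not above control at day 40 (log2 ratio -0.11), and the shape was not counted on that scale.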

How the data were processed

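RNA-seq of seeds was analysed in 6 libraries, 1 for each treatment and day. The authors deposited raw counts per gene with a gene length, and 1 file of FPKM per library. Paired reads of 100 bases came from an Illumina HiSeq instrument, per the labels' protocols. Cufflinks is named in the submitters' processing notes, without version or role. The unit FPKM was inferred from that tool's output, since the file headers name none. For aligner, counter, genome build, strand and reads that match both copies, the status is: not given in the sources used here.

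Counts were fitted with edgeR 4.0.16 in R 4.3.3 on all genes kept by filterByExpr (46483), with TMM scaling, terms for day and treatment, 2 residual degrees of freedom, two-sided tests and Benjamini-Hochberg adjustment at 0.05. The SE of an edgeR fold change is the fold change over the square root of its F. DESeq2 1.42.0, limma 3.58.1 (voom, and log2(FPKM + 1)), other scalings, no filter, summed copies and left-out libraries were alternatives. Ratios for all genes used a prior of 0.5 reads. The gene length trend was a lowess fit (statsmodels 0.14.6). The script was tested on simulated data, with changes planted in genes averaging 5 CPM or more. For drought, the edgeR test called 100% of planted 8-fold changes and 8% of 2-fold changes. For day 50 against day 30 it called 99% and 6%. Most 2-fold changes were thus missed, so an uncalled test on the pair does not exclude a change of that size. The members, lists and tests were chosen with earlier results of these data known. The rule for other named genes took the closest correlations to each copy. The files do not pair IDs with names, so only the closest gene for each copy is printed, and planned lists of elongase, oil and storage protein genes were not used.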

Additional observations from a re-analysis of the deposited data

Results flagged for a closer look

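The drought ratio of both FAE1 copies had opposite signs on different days with TMM scaling, beyond counting error, and this difference between days could not be tested for want of replicates. The A08 copy had a log2 ratio of 0.37 at day 40 but -1.17 at day 50. The C03 copy had 0.10 and 0.51 at the first 2 days, but -1.19 at day 50. With library totals alone the values of day 40 were -0.11 (counting interval -0.17 to -0.05) for the A08 copy, the same sign as at day 50, and 0.025 (-0.03 to 0.08) for the C03 copy, within counting error.

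The step from day 40 to day 50 likewise had opposite signs in the 2 treatments, and this difference was not tested either. For the A08 copy the log2 ratio of day 50 to day 40 was 0.62 in control and -0.92 in drought. For the C03 copy it was 0.61 in control and -1.09 in drought.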

How the results depend on the processing

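None of the 8 tests on the pair was called in edgeR or under any alternative run, the lowest adjusted p being 0.103 in edgeR for the C03 copy from day 30 to day 50 without the drought library of day 50. With 1 library left out in turn, the log2 fold change from day 30 to day 40 ran from 0.23 to 1.15 for the A08 copy and from 0.40 to 1.42 for the C03 copy. From day 40 to day 50 it ran from -0.82 to 0.52 and from -0.99 to 0.51, and from day 30 to day 50 from -0.083 to 1.26 and from -0.024 to 1.47. Drought against control ran from -0.59 to 0.18 and from -0.55 to 0.30. Direction turned in 10 of the 106 alternative values of these tests, all with a library left out. At day 40 the drought log2 ratio of the A08 copy was -0.11 with library totals and 0.26 with FPKM, and that of the C03 copy was 0.025 with library totals, 0.33 with FPKM and 0.45 with the length trend removed. The other 19 alternative values of the daily ratios stayed within the counting interval. Per gene length, the A08 share over days 30, 40 and 50 came to 43.2%, 39.5% and 39.7% for control and 41.2%, 37.3% and 40.1% for drought. From FPKM it came to 42.1%, 38.0% and 38.2% for control and 39.7%, 36.8% and 38.6% for drought. The mean log2 difference of the copy ratio between treatments was -0.06 with FPKM. The numbers of all genes called by these tests ran from 923 to 6087 around 2988 from day 30 to day 40, from 10 to 3573 around 670 from day 40 to day 50, from 3913 to 13192 around 9450 from day 30 to day 50, and from 0 to 467 around 1 for drought. Beyond what the settings change by construction, the cause was not tested.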

Other observations

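The authors' FPKM and the counts of the FAE1 pair did not keep a fixed ratio over the libraries. Relative to the median gene of at least 100 reads in the same library, the FPKM obtained per read and kilobase were 0.942 to 0.966 for the A08 copy in the 5 libraries other than drought day 40, and 0.906 in that one. For the C03 copy they were 1.01 to 1.02 in those 5 libraries and 0.926 in drought day 40.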
